A study of Mus musculus with 9 samples.

Results

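The genes described are 9 transcription factors that set up or maintain microglia and macrophages: Spi1, Irf8, Runx1, Cebpa, Cebpb, Bhlhe40, Bhlhe41, Fli1 and Ikzf1. They were taken by symbol as a named list, with no measured value used, and are 9 of the 33641 genes in the count table. Each symbol stood for a single gene identifier, all 9 genes were measured in every library, and all 9 passed the filter on low counts. Expression was measured by stranded, poly(A)-selected RNA-seq in bulk mouse brain, in pieces that held hypothalamus, thalamus and midbrain. There were 3 genotypes with 3 untreated mice each, all 7.5 months old: PG9VN, PG9V and wild type (WT). The series is about a mouse model of neuronopathic Gaucher disease, a lysosomal storage disease that affects the brain. The labels give the line names only. As general background that the labels do not state, PG9VN and PG9V mice both lack progranulin (gene Grn) in all cells and carry further mutant alleles of the disease model. The groups here include no mouse lacking progranulin alone, and the labels give no strain, sex, litter or batch.

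These proteins act as a network. PU.1, encoded by Spi1, is the ETS-family pioneer factor that opens most macrophage enhancers, and IRF8 binds beside it on shared composite elements. RUNX1 acts earlier, in the blood and yolk-sac progenitors from which microglia arise, and also works in mature myeloid cells. C/EBP alpha and C/EBP beta are basic leucine zipper factors of myeloid differentiation and of the inflammatory response. BHLHE40 and BHLHE41 are closely related repressors that bind E-boxes, FLI1 is an ETS factor of blood and endothelial cells, and IKAROS, encoded by Ikzf1, is a zinc-finger factor of lymphoid cells that microglia also make. In the brain, Spi1, Irf8 and Runx1 are largely restricted to microglia and other macrophages, whereas Bhlhe40 and Bhlhe41 are made by many cell types, neurons included.

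Library totals were 27151215 to 35350177 estimated counts, with a median of 29153169, so 3 counts correspond to 0.0849 to 0.110 CPM (counts scaled to a common library size), covering counting error only. Grn had 4.71, 3.58 and 4.21 CPM in PG9VN and 4.37, 2.59 and 4.73 CPM in PG9V, against 55.5, 46.5 and 48.2 CPM in WT. PG9V replicate 2 and WT replicate 1 had 191 and 214 counts over Y-linked genes, against 3852 to 5903 in the other 7 libraries. The labels do not give sex, so results were also computed without these libraries. PG9VN replicate 2 stood apart within its group, with a summed level of 14960 CPM over 8 oligodendrocyte markers, against 9624 and 6485 CPM in PG9VN replicates 1 and 3. Differences were tested with edgeR's quasi-likelihood test over all 17398 genes that passed the filter, with Benjamini-Hochberg adjustment, and a gene is called where its adjusted p is under 0.05. Values written with ± after a log2 fold change are standard errors.

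Transcripts of 8 of the 9 factors rose in PG9VN brain relative to WT, and 0 fell. Spi1, Irf8, Runx1 and Cebpa rose most, between 4.11-fold and 5.74-fold. Ikzf1, Cebpb, Fli1 and Bhlhe41 rose less, and Bhlhe40 did not pass the test. Genes called higher made up 11.5% of all genes tested in this comparison, and genes called lower 7.22%. With unadjusted p-values under 0.05, or with DESeq2, the number lower was 0 as well. In PG9V against WT, 3 factors were called higher (Spi1, Irf8 and Runx1) where 1.62% of all genes were, and in PG9VN against PG9V the same 3 were called where 2.72% of all genes were. The number lower was 0 in these comparisons too, also unadjusted and with DESeq2, where 0.149% of all genes were called lower in PG9V over WT and 0.667% in PG9VN over PG9V. The median log2 fold change of the 9 was 1.25 in PG9VN over WT, 0.62 in PG9V over WT and 0.82 in PG9VN over PG9V, while the median of all genes tested lay between 0.01 and 0.02. Without PG9V replicate 2 and WT replicate 1, which nearly lacked Y-linked counts, 5 factors were called higher in PG9VN over WT and 1 in PG9V over WT. The 3 calls in PG9VN over PG9V became 0 without PG9VN replicate 3, PG9V replicate 1 or PG9V replicate 3, and 5 without PG9VN replicate 1. These comparisons share libraries, so they are not independent of each other. In bulk tissue, fewer cells of a type and less RNA per cell cannot be told apart, and nor can more cells and more RNA per cell.

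**Figure D1:**
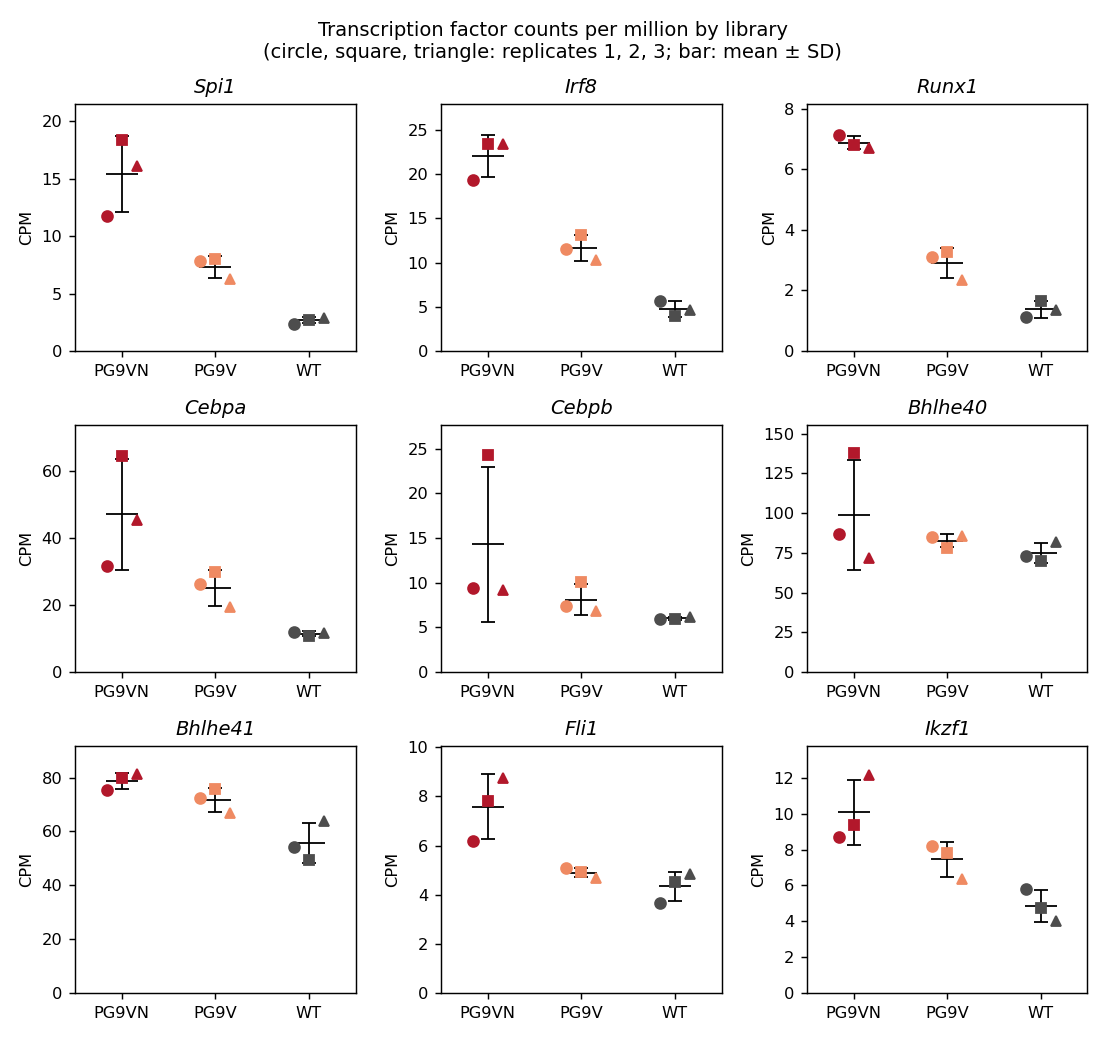
Level of each factor in CPM (y axis, starting at 0) in the 3 libraries of PG9VN, PG9V and WT (x axis), with the mean and SD of each group as a bar. Spi1, Irf8, Runx1, Cebpa and Ikzf1 form 3 groups that do not overlap, with PG9VN highest. The gap between PG9VN and PG9V is small for Cebpa and Ikzf1. In Cebpb and Bhlhe40 a single library, PG9VN replicate 2, lies far above all others.

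Spi1, which encodes PU.1, had 11.8, 18.3 and 16.1 CPM in PG9VN and 7.81, 7.99 and 6.26 CPM in PG9V, against 2.39, 2.74 and 2.90 CPM in WT. Every PG9VN library lay above every PG9V library, and every PG9V library above every WT library. Spi1 differed by a log2 fold change of 2.52 ± 0.19 in PG9VN over WT (edgeR adjusted p = 5.89e-05), 1.45 ± 0.19 in PG9V over WT (adjusted p = 0.00591) and 1.07 ± 0.18 in PG9VN over PG9V (adjusted p = 0.0186). This was the largest PG9VN difference from WT among the 9 factors. Without the PG9V and WT libraries that nearly lacked Y-linked counts, the log2 fold change in PG9V over WT was 1.32 with an edgeR adjusted p of 0.138.

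Irf8, the partner of PU.1 on composite elements, had 19.3, 23.4 and 23.4 CPM in PG9VN and 11.5, 13.2 and 10.3 CPM in PG9V, against 5.68, 3.93 and 4.60 CPM in WT. The groups again did not overlap, with PG9V in the middle. Its log2 fold changes were 2.22 ± 0.16 in PG9VN over WT (edgeR adjusted p = 5.59e-05), 1.30 ± 0.16 in PG9V over WT (adjusted p = 0.00533) and 0.92 ± 0.16 in PG9VN over PG9V (adjusted p = 0.0184). In PG9V against WT it was the only factor called under all 20 alternatives, where its highest adjusted p was 0.0479. A predicted gene, Gm20388, overlaps Irf8 on the same strand in the annotation, so reads may be split between them. Gm20388 had 45.1, 47.4 and 26.3 CPM in PG9VN and 23.5, 27.3 and 24.0 CPM in PG9V, against 34.1, 26.0 and 19.0 CPM in WT, and those groups overlapped.

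Runx1 had 7.12, 6.79 and 6.71 CPM in PG9VN and 3.09, 3.28 and 2.33 CPM in PG9V, against 1.11, 1.66 and 1.37 CPM in WT. The PG9VN libraries lay close together, and no groups overlapped. Runx1 differed by a log2 fold change of 2.31 ± 0.20 in PG9VN over WT (edgeR adjusted p = 0.000113), 1.07 ± 0.20 in PG9V over WT (adjusted p = 0.0328) and 1.24 ± 0.19 in PG9VN over PG9V (adjusted p = 0.0148). The call in PG9V over WT was lost under 11 of 20 alternatives, with an adjusted p of up to 0.399 without the libraries nearly lacking Y-linked counts. In PG9VN over PG9V this was the largest difference among the 9 factors, but Spi1, Irf8 and Runx1 all lost that call without PG9VN replicate 3, without PG9V replicate 1 or without PG9V replicate 3. Their adjusted p-values there were 0.0571 to 0.0998.

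Runx1 is read from 2 widely separated start sites, and transcripts from both had estimated counts here. In blood development the distal promoter serves definitive blood cells and the proximal promoter serves earlier progenitors. The upstream sequences are shown because counts were estimated separately for the transcripts of each start. Both are the 250 bases before a start site on the minus strand, from RefSeq on build GRCm38.p6, at chr16:92826075-92826324 for the distal start and chr16:92697330-92697579 for the proximal start. Capitals mark a class B E-box, CACGTG, the motif bound by BHLHE40 and BHLHE41, in the distal sequence, and a PU box, GAGGAA read on the other strand as TTCCTC, in the proximal sequence.
Runx1 distal: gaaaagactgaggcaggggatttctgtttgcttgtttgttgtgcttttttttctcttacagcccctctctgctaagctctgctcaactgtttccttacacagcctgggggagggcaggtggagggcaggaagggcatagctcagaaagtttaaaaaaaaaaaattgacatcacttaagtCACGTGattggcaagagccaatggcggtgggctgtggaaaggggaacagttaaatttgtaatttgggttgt
Runx1 proximal: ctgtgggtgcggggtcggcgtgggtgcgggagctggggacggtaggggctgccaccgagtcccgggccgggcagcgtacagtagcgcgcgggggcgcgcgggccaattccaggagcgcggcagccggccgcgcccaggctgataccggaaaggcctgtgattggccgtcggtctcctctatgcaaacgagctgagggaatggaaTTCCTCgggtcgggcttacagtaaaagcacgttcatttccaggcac
The E-box begins 71 bases before the distal start, and CACGTG is present in 6.02% of 32851 mouse promoter windows of that length. The PU box lies 46 bases before the proximal start, and GAGGAA is present on either strand in 23.3% of those windows. No other motif match was found in either Runx1 window for TGTGGT (a RUNX site, in 14.0% of windows), TTNCNNAA (a C/EBP site, in 36.8%) or GGAA followed after 2 bases by GAAA (a composite ETS and IRF element, in 2.3%), all read on both strands. These matches are letters in a window and do not show binding. Promoter windows were at hand for 6 of the 9 genes, and were not used here for Spi1, Fli1 and Bhlhe40. Of the other members, Bhlhe41 held CACGTG 153 bases before its RefSeq start. That start lay 68 bases from the nearest transcript start in the annotation, Bhlhe41-203. A second Ikzf1 window held TTNCNNAA 96 bases before its RefSeq start. That start lay 3732 bases from the nearest one in the annotation, Ikzf1-201, so it is not shown to serve the transcripts counted here. The windows of Cebpa, Cebpb and Irf8 held none of the 5 motifs.

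Transcript Runx1-201, from the distal start, held 73.4% of all Runx1 counts over the 9 libraries, and Runx1-202, from the proximal start, held 21.4%. Runx1-201 had 4.46, 5.90 and 5.08 CPM in PG9VN and 2.10, 2.59 and 1.85 CPM in PG9V, against 0.416, 1.08 and 1.06 CPM in WT. No groups overlapped for it. In a test over 53622 transcripts, its log2 fold change was 2.61 ± 0.37 in PG9VN over WT (edgeR adjusted p = 0.00896), with adjusted p = 0.352 in PG9V over WT and 0.331 in PG9VN over PG9V. Runx1-202 had 1.94, 0.775 and 1.32 CPM in PG9VN and 0.994, 0.630 and 0.415 CPM in PG9V, against 0.658, 0.305 and 0.140 CPM in WT. The PG9VN libraries lay above all WT libraries, but its log2 fold change of 1.89 ± 0.61 did not pass the test (edgeR adjusted p = 0.149). In WT, Runx1-202 held 61.3%, 18.4% and 10.2% of the gene's counts in replicates 1, 2 and 3. The split between these transcripts was thus not stable within a genotype. A difference between the start sites was not tested.

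**Figure D2:**
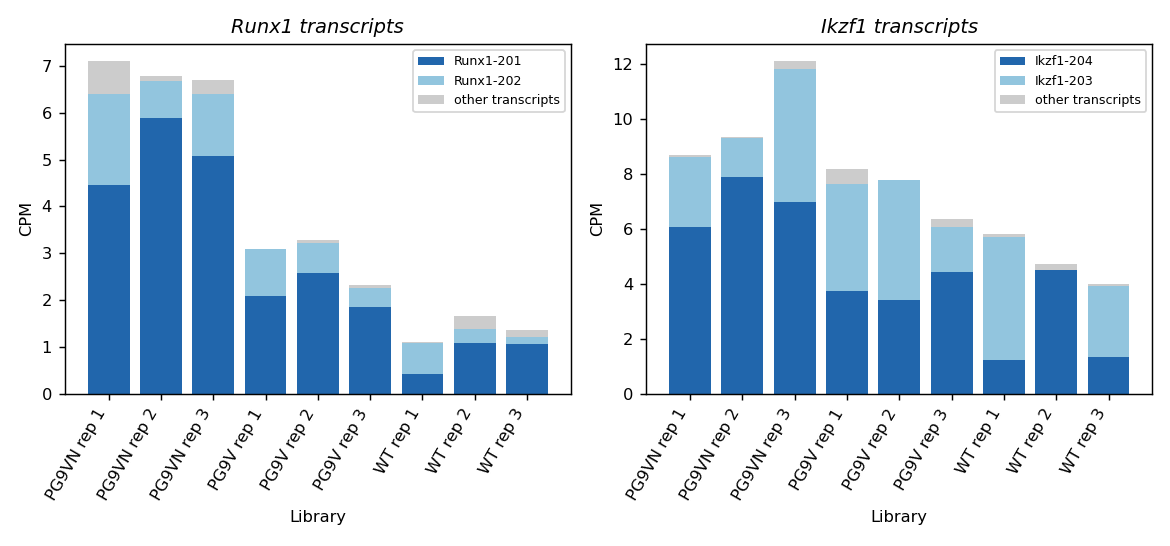
Stacked CPM values (y axis, starting at 0) of the transcripts of Runx1 and Ikzf1 in each of the 9 libraries (x axis), with the main transcripts in blue and the rest in grey. The distal-start transcript Runx1-201 is the larger part of Runx1 in every library but WT replicate 1, and the split of Ikzf1 between its 2 main transcripts changes from library to library within WT.

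Cebpa had 31.5, 64.3 and 45.2 CPM in PG9VN and 26.2, 29.8 and 19.3 CPM in PG9V, against 11.95, 10.7 and 11.7 CPM in WT. The groups did not overlap, but PG9VN was spread widely, with replicate 2 highest. Cebpa rose by 2.04 ± 0.26 on the log2 scale in PG9VN over WT (edgeR adjusted p = 0.00093). The 1.13 ± 0.25 in PG9V over WT (edgeR adjusted p = 0.0685) and the 0.91 ± 0.25 in PG9VN over PG9V (adjusted p = 0.0916) did not pass, though DESeq2 called both, with adjusted p = 0.000785 and 0.00823.

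Cebpb, an inflammation-responsive member of the same family, had 9.42, 24.2 and 9.15 CPM in PG9VN and 7.35, 10.1 and 6.83 CPM in PG9V, against 5.89, 5.96 and 6.14 CPM in WT. All mutant libraries lay above all WT libraries, and PG9VN and PG9V overlapped. The log2 fold change in PG9VN over WT was 1.25 ± 0.36 (edgeR adjusted p = 0.0434) and was 0.63 without PG9VN replicate 2 (adjusted p = 0.0223). The call was lost in 12 of 20 alternatives, with an adjusted p of up to 0.155. Neither the 0.43 ± 0.36 in PG9V over WT (edgeR adjusted p = 0.651) nor the 0.82 ± 0.36 in PG9VN over PG9V (adjusted p = 0.306) passed.

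Ikzf1 had 8.70, 9.37 and 12.1 CPM in PG9VN and 8.20, 7.79 and 6.35 CPM in PG9V, against 5.82, 4.74 and 3.99 CPM in WT. The 3 groups did not overlap, and the distance between the lowest PG9VN and the highest PG9V library was small. Ikzf1 gave a log2 fold change of 1.06 ± 0.19 in PG9VN over WT (edgeR adjusted p = 0.00564), 0.62 ± 0.19 in PG9V over WT (adjusted p = 0.179) and 0.44 ± 0.19 in PG9VN over PG9V (adjusted p = 0.292). Its counts were split between transcripts Ikzf1-204, with 58.5% of the gene's counts, and Ikzf1-203, with 39.0%. Ikzf1-204 averaged 6.99 ± 0.91 CPM in PG9VN and 3.86 ± 0.52 CPM in PG9V, against 2.35 ± 1.86 CPM in WT (SD, n = 3 each), with a log2 fold change of 1.60 ± 0.47 in PG9VN over WT that did not pass (edgeR adjusted p = 0.119). In WT, Ikzf1-204 held 95.0% of the gene's counts in replicate 2, against 21.0% and 33.6% in replicates 1 and 3, so the division of reads between these transcripts was not stable within a genotype.

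Fli1 had 6.18, 7.82 and 8.77 CPM in PG9VN and 5.08, 4.91 and 4.69 CPM in PG9V, against 3.67, 4.50 and 4.83 CPM in WT. The PG9VN libraries lay above all others, while PG9V and WT overlapped. The log2 fold change was 0.81 ± 0.17 in PG9VN over WT (edgeR adjusted p = 0.011) and 0.63 ± 0.17 in PG9VN over PG9V (adjusted p = 0.0827). In PG9V over WT it was 0.17 ± 0.17 (edgeR adjusted p = 0.71). Endothelial cells also make FLI1, and 12 endothelial markers summed to 333.5 to 341.4 CPM in PG9VN and 334.4 to 356.4 CPM in PG9V, against 279.8 to 298.8 CPM in WT. Of these 12, Vwf and Cldn5 rose and Tek fell in PG9VN over WT, and the Tek call was lost without PG9VN replicate 3, WT replicate 1 or WT replicate 3. Their part in the Fli1 result was not tested.

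Bhlhe41 had 75.4, 80.0 and 81.2 CPM in PG9VN and 72.3, 75.9 and 67.0 CPM in PG9V, against 54.1, 49.3 and 63.9 CPM in WT. In CPM, both mutant groups lay above WT and overlapped each other. The log2 fold change was 0.50 ± 0.10 in PG9VN over WT (edgeR adjusted p = 0.00998), 0.36 ± 0.10 in PG9V over WT (adjusted p = 0.14) and 0.14 ± 0.10 in PG9VN over PG9V (adjusted p = 0.585). Bhlhe40 had 86.8, 138 and 71.9 CPM in PG9VN and 84.7, 78.0 and 85.4 CPM in PG9V, against 73.0, 70.0 and 81.7 CPM in WT. All 3 groups overlapped, and PG9VN held both its highest value and a value inside the WT range. The log2 fold change of Bhlhe40 was 0.40 ± 0.20 in PG9VN over WT (edgeR adjusted p = 0.211) and 0.14 ± 0.20 in PG9V over WT (adjusted p = 0.823). In PG9VN over PG9V it was 0.26 ± 0.20 (edgeR adjusted p = 0.616), and -0.0498 without PG9VN replicate 2.

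**Figure D3:**
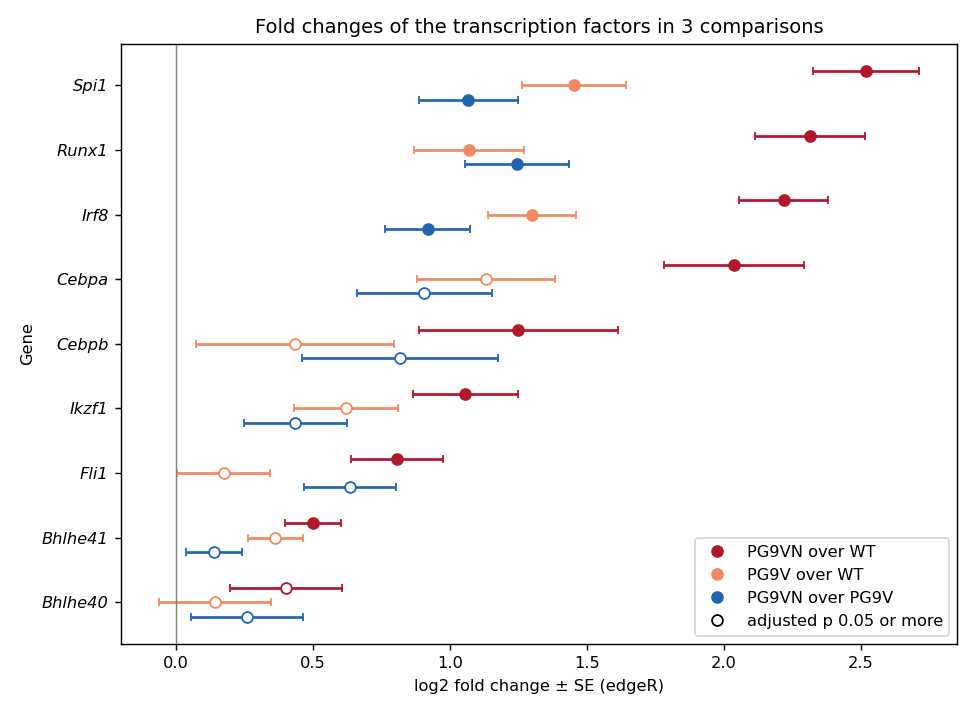
Log2 fold change with its standard error (x axis) of each factor (y axis) in PG9VN over WT, PG9V over WT and PG9VN over PG9V, with open points where the adjusted p was 0.05 or more. Spi1, Runx1, Irf8 and Cebpa lie at 2.04 to 2.52 in PG9VN over WT, and every other factor lies at or below 1.25.

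Counted by library, 8 of 9 factors had every PG9VN library above every WT library, where 20.3% of all genes did. The exception was Bhlhe40. In PG9V against WT the count was 7 of 9, where 16.5% of all genes did so, and in PG9VN against PG9V it was 6 of 9, where 12.2% did. A single edgeR test over the 3 genotypes called 11.7% of all genes. Its adjusted p was 0.102 for Cebpb and 0.416 for Bhlhe40. It was under 0.05 for each other factor, with 0.000196 for Spi1.

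Levels of different genes can be compared per transcript length, as TPM, which are scaled to the library total after division by length. In PG9VN the order from high to low was Bhlhe40 at 65.3 ± 14.6 TPM, Bhlhe41 at 35.7 ± 4.1, Cebpa at 35.4 ± 8.9, Cebpb at 18.2 ± 8.8, Spi1 at 17.8 ± 4.5, Irf8 at 17.2 ± 1.9, Fli1 at 4.68 ± 0.89, Ikzf1 at 4.35 ± 1.25 and Runx1 at 2.75 ± 0.51 (SD, n = 3). In WT, Bhlhe40 at 56.8 ± 4.4 TPM and Bhlhe41 at 31.7 ± 4.9 stood well above the rest, with Cebpa at 9.84 ± 0.58, Cebpb at 8.97 ± 0.25, Irf8 at 4.29 ± 0.77, Spi1 at 3.71 ± 0.80, Fli1 at 2.97 ± 0.47, Ikzf1 at 2.48 ± 0.55 and Runx1 at 0.721 ± 0.198. In PG9V, Spi1 at 9.31 ± 1.27 and Irf8 at 9.23 ± 0.77 TPM did not differ beyond their spread, as in the other genotypes. Cebpa and Bhlhe41 did not differ beyond their spread in PG9VN, at 35.4 and 35.7 TPM, whereas in WT Bhlhe41 was far higher. Neighbouring levels of Cebpb, Spi1 and Irf8 in PG9VN, and of Fli1 and Ikzf1 in PG9VN and WT, also lay within their spread. Bhlhe41, separated from WT in CPM, was not separated as TPM. It spanned 31.4 to 39.6 TPM in PG9VN and 34.7 to 36.5 TPM in PG9V, against 27.6 to 37.1 TPM in WT.

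The 18 microglia and macrophage markers, which include Cx3cr1, P2ry12, Tmem119 and C1qa, gave a scale for the factors. In PG9VN over WT the markers had a median log2 fold change of 1.12, against 2.52 for Spi1. They did not rise alike, with 0.64 for Csf1r and 2.97 for Itgb2. Their summed level was 1607 to 2058 CPM in PG9VN and 856.6 to 1203 CPM in PG9V, against 511.5 to 593.0 CPM in WT, with 15 of 18 called higher in PG9VN over WT and 0 lower (0 also unadjusted or by DESeq2). Their mean log2 level relative to WT was 1.23, 1.51 and 1.27 in PG9VN and 0.74, 0.88 and 0.53 in PG9V, against 0.14, -0.10 and -0.03 in WT. Set against this mean library by library, Spi1 was higher by 0.97 on the log2 scale in PG9VN than in WT, Irf8 by 0.78, Runx1 by 0.65 and Cebpa by 0.60. For each of these 4 every PG9VN library lay above every WT library, which gives an exact two-sided permutation p of 0.1, the smallest that 3 against 3 allows. The same difference was -0.99 for Bhlhe40 and -0.83 for Bhlhe41, with every PG9VN library below WT, and -0.60 for Fli1, -0.35 for Ikzf1 and -0.30 for Cebpb, with overlap. The median of the markers' log2 levels in each library was also used in place of the mean. This median follows the markers of middle level and is not their median log2 fold change of 1.12. On that scale, Spi1, Irf8, Runx1 and Cebpa lay 1.23 to 1.60 above WT. Fli1 at 0.0375, Ikzf1 at 0.28 and Cebpb at 0.34 were no longer negative. In PG9V against WT, Spi1 at 0.58, Irf8 at 0.51 and Cebpa at 0.36 were higher relative to the marker mean in every library, and Runx1 at 0.14 overlapped with WT. Bhlhe40 at -0.57, Fli1 at -0.55, Bhlhe41 at -0.35 and Cebpb at -0.33 were lower in every library, and Ikzf1 at -0.14 overlapped.

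**Figure D4:**
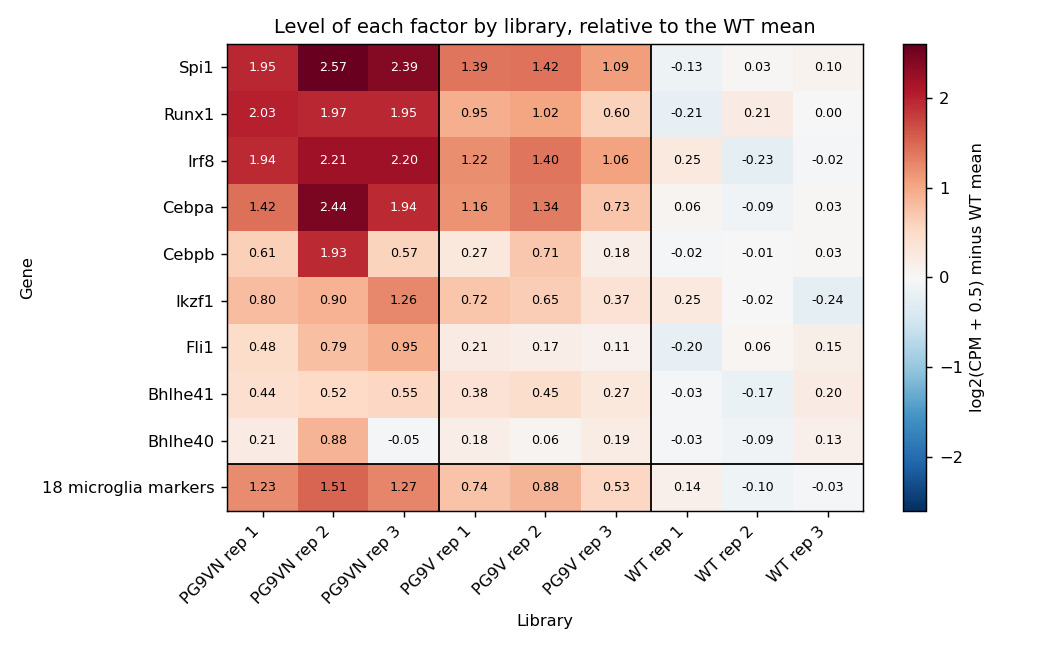
Level of each factor, as log2(CPM + 0.5) minus the WT mean (colour and printed value), in each of the 9 libraries (x axis), with the mean of the 18 microglia markers as the last row. Spi1, Irf8, Runx1 and Cebpa exceed the marker row in all 6 mutant libraries, while Bhlhe40 and Bhlhe41 stay below it in all 6 mutant libraries.

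Across the 9 libraries the factors with the most alike profiles were Spi1 and Irf8, whose log2 levels relative to WT differed by a root mean square of 0.22, and the least alike were Spi1 and Bhlhe40, at 1.33. Among 15197 genes averaging 1 CPM or more, the profiles nearest to Spi1 were those of Ptpn6, a phosphatase of blood cells, and Icam1, an adhesion molecule, at 0.08 and 0.10. Those nearest to Irf8 were Laptm5, a lysosomal membrane protein of blood cells, and Ahnak2, at 0.13 and 0.14. Those nearest to Runx1 were Vav1, a blood-cell signalling protein, at 0.13, and Plek, at 0.14. Cebpa ran closest to Cd63, a late endosome protein, at 0.10, and the Fc receptor gene Fcgr3, at 0.12. Cebpb was nearest to Apod and Tmsb4x, each at 0.17, and Apod also had its highest level in PG9VN replicate 2, with 419.3, 893.6 and 433.0 CPM in PG9VN and 354.5, 362.7 and 263.0 CPM in PG9V, against 262.0, 238.9 and 222.4 CPM in WT. Bhlhe40 was nearest to Phyhip, at 0.08, and Psmb3, a proteasome subunit, at 0.09. Bhlhe41 was nearest to Pald1, at 0.05, and Tnip2, at 0.06. Fli1 was nearest to Cdc20 and Marcksl1, at 0.09 and 0.11, and Ikzf1 to Pik3cg, a leukocyte lipid kinase, and Kcne1l, at 0.10 and 0.12. These are descriptions over 9 libraries, in which the genes of a pair share the library, its depth and its tissue makeup.

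Relatives of the factors were read by family. Of 14 other ETS genes tested, 3 were called higher in PG9VN over WT and 0 lower (0 also unadjusted or by DESeq2), with a median log2 fold change of 0.10. Elf4, an ETS gene of lymphoid and myeloid cells, averaged 6.45 ± 1.46 CPM in PG9VN and 3.48 ± 0.39 CPM in PG9V, against 1.99 ± 0.27 CPM in WT (SD, n = 3 each), a log2 fold change of 1.696 ± 0.21 in PG9VN over WT (edgeR adjusted p = 0.000654). Elk3 and Elf1 rose by 0.82 and 0.59, and the median of all genes was 0.02. Of 8 other IRF genes, 5 were called higher in PG9VN over WT, with a median of 0.51, a count that was 3 without WT replicate 3. Irf7, which amplifies the interferon response, averaged 11.3 ± 3.1 CPM in PG9VN and 4.05 ± 0.60 CPM in PG9V, against 2.82 ± 0.80 CPM in WT (SD, n = 3 each), with log2 fold changes of 2.01 ± 0.26 in PG9VN over WT and 1.49 ± 0.26 in PG9VN over PG9V (edgeR adjusted p = 0.00101 and 0.0197). The number of these 8 called in PG9VN over PG9V was 2, but 0 without PG9VN replicate 3 or any PG9V library, and 1 without any WT library. Irf1 and Irf5 rose by 1.13 and 1.04 in PG9VN over WT. In PG9V over WT, 0 of the 14 ETS and 0 of the 8 IRF genes were called by edgeR. Without adjustment 3 ETS and 1 IRF gene had a p under 0.05, and DESeq2 called 1 of each.

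In the C/EBP family, Cebpd, an acute-phase member, had 27.9, 55.9 and 34.3 CPM in PG9VN and 15.6, 16.8 and 8.14 CPM in PG9V, against 5.75, 7.35 and 5.997 CPM in WT. The groups did not overlap, and its log2 fold change of 2.63 ± 0.33 in PG9VN over WT (edgeR adjusted p = 0.00102) stood beside 2.04 for Cebpa. In PG9VN over PG9V it was 1.54 ± 0.32 (edgeR adjusted p = 0.0358), a call lost when any library other than PG9VN replicate 1 or PG9VN replicate 2 was left out. Cebpg rose by 0.33 in PG9VN over WT, a call lost without WT replicate 1 or WT replicate 3. Cbfb, whose protein pairs with the RUNX proteins, averaged 24.4 ± 1.2 CPM in PG9VN and 22.8 ± 1.7 CPM in PG9V, against 22.8 ± 1.6 CPM in WT (SD, n = 3 each). It had a log2 fold change of 0.09 ± 0.09 in PG9VN over WT (edgeR adjusted p = 0.518). Runx3 rose at a low level, with 0.934 ± 0.579 CPM in PG9VN and 0.408 ± 0.139 CPM in PG9V, against 0.175 ± 0.074 CPM in WT (SD, n = 3 each; edgeR adjusted p = 0.0161 in PG9VN over WT), a call lost without WT replicate 1 or WT replicate 2. Of the 4 other Ikaros genes, 0 were called in any comparison by edgeR, DESeq2 or limma-voom, and 1 was higher at an unadjusted p under 0.05 in PG9VN over WT. Without PG9VN replicate 2, edgeR called 1.

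Among 22 other regulators of blood cells and microglia, 5 were called higher and 2 lower in PG9VN over WT, and 3 higher in PG9V over WT. The number higher in PG9VN over WT was 8 without PG9VN replicate 1 or WT replicate 2, and the number lower was 1 when any library other than WT replicate 2 was left out. In PG9V over WT the number higher was 0 without PG9V replicate 1, PG9V replicate 2 or any WT library. Lyl1, a basic helix-loop-helix factor of blood progenitors, rose by 2.07 ± 0.20 in PG9VN over WT and 1.101 ± 0.20 in PG9V over WT (edgeR adjusted p = 0.0002 and 0.0292). Lmo2, a bridging protein of the same complexes, rose by 0.97 ± 0.13 in PG9VN over WT (edgeR adjusted p = 0.00116). The genes that fell, Tal1 and Gata2, are named although their values were seen first. Tal1, another factor of blood stem cells that also marks midbrain neurons, fell by 1.63 on the log2 scale in PG9VN over WT (edgeR adjusted p = 0.00186), and Gata2, a factor of the same cells, by 0.43 (adjusted p = 0.0418). On a list of 9 MiT, nuclear receptor and other regulators, 2 were called higher in PG9VN over WT, and 1 without WT replicate 3. These were Nfe2l2, which belongs to neither family, by 1.12 ± 0.11 and Nr1h3, a nuclear receptor, by 0.74 ± 0.16 (edgeR adjusted p = 0.000232 and 0.0132).

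All 27 genes on a list of macrophage targets of PU.1 and IRF8 were called higher in PG9VN over WT, with a median log2 fold change of 2.18. This list was drawn from general knowledge with earlier results of these data known, and it overlaps the microglia markers, so its count is a description. Lyz2, encoding lysozyme, had 450.2, 877.7 and 819.3 CPM in PG9VN and 158.0, 302.7 and 129.8 CPM in PG9V, against 8.76, 7.24 and 7.95 CPM in WT. Ctss, a lysosomal protease, averaged 416.7 ± 82.4 CPM in PG9VN and 172.5 ± 36.9 CPM in PG9V, against 64.1 ± 5.7 CPM in WT (SD, n = 3 each). Lyz2 was thus separated between all 3 groups, with a log2 fold change of 6.49 ± 0.43 in PG9VN over WT (edgeR adjusted p = 5.1e-05). Csf1r, the receptor for the microglial growth factor, rose by 0.64 ± 0.13 in PG9VN over WT (edgeR adjusted p = 0.00834). In PG9V over WT, 17 of the 27 were called higher, a count that was 6 without the libraries nearly lacking Y-linked counts, 9 without WT replicate 3 and 11 without PG9V replicate 2, WT replicate 1 or WT replicate 2. In PG9VN over PG9V, 22 were called, a count that was 1 without PG9V replicate 1 or without PG9V replicate 3, 2 without PG9VN replicate 3 and 14 without WT replicate 3.

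**Figure D5:**
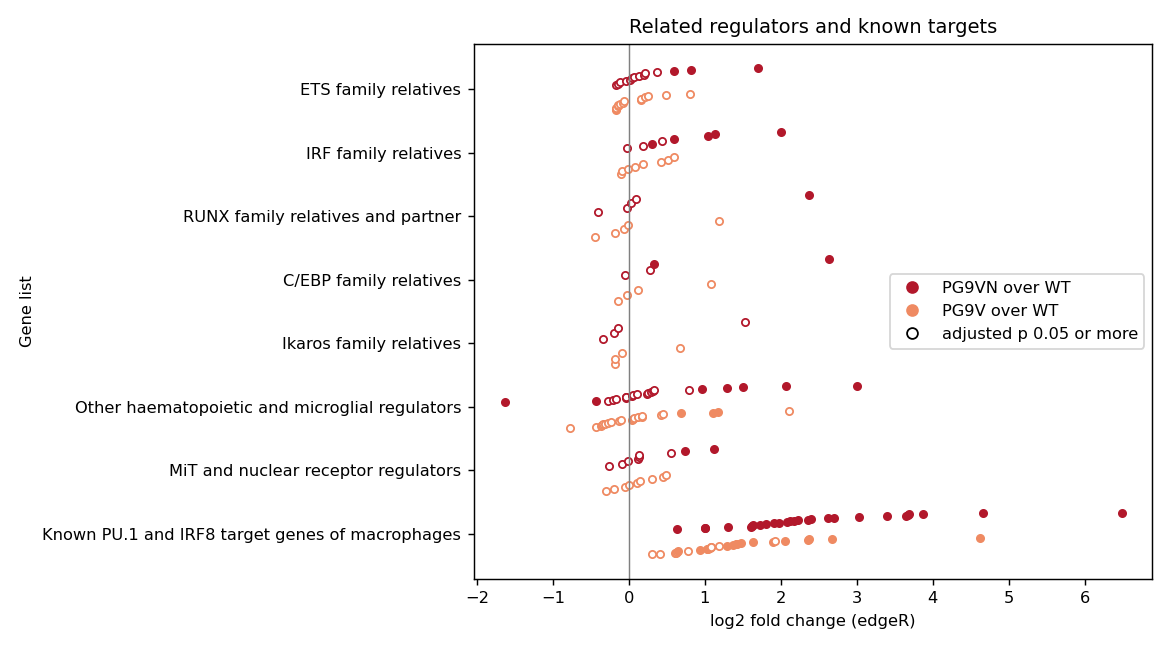
Log2 fold changes (x axis) of single genes in 8 lists of related regulators and known targets (y axis) in PG9VN over WT and PG9V over WT, with open points where the adjusted p was 0.05 or more. The 27 targets of PU.1 and IRF8 all lie to the right of 0, while most ETS, RUNX and Ikaros relatives lie near it.

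Markers of other cells that make some of these factors were also summed. Over 9 neutrophil markers the summed level was 2.98 to 3.90 CPM in PG9VN and 2.24 to 3.02 CPM in PG9V, against 1.94 to 3.62 CPM in WT, and Elane and Retnlg had 3 or fewer counts in every library. Only Mpo and Cxcr2 passed the filter on low counts, and neither was called by edgeR, also at an unadjusted p under 0.05. DESeq2 called 1 of the 9 higher in PG9VN over WT, as did edgeR without PG9VN replicate 2 or without PG9V replicate 1. S100a8, named after its values were seen, had 0.683, 0.332 and 0.626 CPM in PG9VN and 0, 0.166 and 0.0958 CPM in PG9V, against 0.0346, 0.169 and 0.112 CPM in WT. Its PG9VN libraries lay above all others, at a low level. Over 11 lymphocyte markers it was 7.97 to 22.0 CPM in PG9VN and 9.38 to 13 CPM in PG9V, against 5.36 to 15.5 CPM in WT. Cd3g, Cd8b1 and Cd79b were called higher in PG9VN over WT at below 1 CPM, with 1 call without WT replicate 1 or WT replicate 2, and Ncr1 had 3 or fewer counts in every library. Border macrophage and monocyte markers summed to 29.2 to 39.6 CPM in PG9VN and 17.97 to 21.5 CPM in PG9V, against 12.6 to 14.8 CPM in WT. Of the 9 tested, 1 was called higher and 1 lower in PG9VN over WT, with a median log2 fold change of -0.21. Ms4a7 rose, with 20.4 ± 4.1 CPM in PG9VN and 5.35 ± 3.08 CPM in PG9V, against 0.611 ± 0.058 CPM in WT (SD, n = 3 each), and Lyve1 fell in PG9VN over WT. Ms4a7 held most of the summed level in PG9VN, and Mrc1 and Cd163, also named after their values were seen, had log2 fold changes of 0.0552 ± 0.39 and -0.46 ± 0.56 in PG9VN over WT (edgeR adjusted p = 0.939 and 0.617). Neuron markers, of which 2 of 11 fell in PG9VN over WT, summed to 4424 to 6188 CPM in PG9VN and 5246 to 5960 CPM in PG9V, against 6532 to 6841 CPM in WT. Their median log2 fold change in PG9VN over WT was -0.43, and 7 were lower at an unadjusted p under 0.05. DESeq2 called 4 lower. Their number called lower by edgeR was 5 without PG9VN replicate 2, and 1 without PG9VN replicate 3, any PG9V library, WT replicate 1 or WT replicate 3. Astrocyte markers, of which 4 of 9 rose, summed to 5035 to 5311 CPM in PG9VN and 4493 to 5316 CPM in PG9V, against 4143 to 4438 CPM in WT. The 8 oligodendrocyte markers gave 1 call higher in PG9VN over WT, and 2 without PG9VN replicate 2. The 5 haemoglobin and red cell genes gave 0 by edgeR, with 1 higher at an unadjusted p under 0.05, 1 by DESeq2, 1 by limma-voom and 1 by edgeR without WT replicate 1. The part of these cells in the levels of the factors was not tested.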

How the data were processed

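Libraries were stranded and made from poly(A)-selected RNA, per the labels' protocols. The submitters' processing notes name kallisto 0.43.1, HISAT2 2.0.5, Trimmomatic 0.33 and FastQC, and the mouse build mm39, without saying which tool produced the values. The authors deposited estimated counts for 105129 transcripts and 9 mice, not divided by length or depth; 59.6% of values lay more than 0.001 from a whole number. Tests had been planned on gene counts, so the estimated counts of each gene were summed and rounded. Spreadsheet software had turned 177 transcripts' symbols into dates, of which 173 were resolved by identifier and 4 left out.

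Tests used edgeR 4.0.16 in R 4.3.3 (TMM, filterByExpr, robust quasi-likelihood, 1 coefficient per genotype, all 9 libraries), with Benjamini-Hochberg adjustment over 17398 genes at 0.05, and were tested on simulated data. CPM use TMM library sizes, and profiles use log2(CPM + 0.5). TPM use transcript lengths of an annotation of the earlier build, which matched 98.6% of transcripts; no gene coordinates of the files are given because the builds differ. Alternatives included DESeq2 1.42.0 and limma-voom (limma 3.58.1); recounting the lists under each alternative was chosen after seeing the data. The members and the 17 gene lists were chosen with earlier results of these data known. Named genes are the members, Grn and the 3 genes of a list with the smallest p in PG9VN against WT. The 2 nearest profiles of each member are named too. Tal1, Gata2, Csf1r, Cx3cr1, S100a8, Mrc1, Cd163 and Gm20388 were added after their values were seen. Some items that the rule covers are not reported here. Each library came from a separate mouse. Replicate numbers follow accession order.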

Additional observations from a re-analysis of the deposited data

How the results depend on the processing

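Spi1, Irf8, Runx1 and Cebpa were called higher in PG9VN over WT under all 20 alternatives, with log2 fold changes of 2.37 to 2.67, 2.10 to 2.37, 2.18 to 2.61 and 1.74 to 2.24. The count of factors called in PG9VN over WT was 5 without the libraries nearly lacking Y-linked counts, where Cebpb, Bhlhe41 and Fli1 were lost, and 5 with the main transcript in place of the gene sum, where Cebpb, Fli1 and Ikzf1 were lost. It was 7 to 8 when each library was left out in turn. In PG9V over WT the count was 1 without the libraries nearly lacking Y-linked counts, and 2 to 4 with each library left out. In PG9VN over PG9V it was 5 with DESeq2, 0 with the main transcript and 0 to 5 with each library left out: 0 without PG9VN replicate 3, PG9V replicate 1 or PG9V replicate 3, and 5 without PG9VN replicate 1. Over all genes the count called higher under the alternatives was 1023 to 2365 in PG9VN over WT, 74 to 620 in PG9V over WT and 2 to 843 in PG9VN over PG9V. Bhlhe40 in PG9VN over PG9V turned to -0.0498 without PG9VN replicate 2 and was 0.44 without PG9VN replicate 3. The cause of these changes was not tested, though leaving out libraries leaves fewer mice. The main transcript did not always hold fewer counts than the gene. Of the factors lost in PG9VN over WT with the main transcript, it held 100% of the counts for Cebpb, 99.39% for Fli1 and 58.49% for Ikzf1. For Cebpb the edgeR adjusted p was 0.0434 with the gene sum and 0.131 with the main transcript. The latter test was adjusted over transcripts instead of genes.

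Levels relative to the microglia markers depended on whether the mean or the median of the markers' log2 levels in a library was used. With the median they were, in PG9VN over WT, 1.60 for Spi1, 1.41 for Irf8, 1.28 for Runx1, 1.23 for Cebpa, 0.34 for Cebpb, -0.35 for Bhlhe40, -0.20 for Bhlhe41, 0.0375 for Fli1 and 0.28 for Ikzf1. In PG9V over WT they were 0.93 for Spi1, 0.85 for Irf8, 0.48 for Runx1, 0.70 for Cebpa and 0.0103 for Cebpb. There Bhlhe40 was at -0.23, Bhlhe41 at -0.0094, Fli1 at -0.21 and Ikzf1 at 0.20. In PG9VN over PG9V they were 0.68 for Spi1, 0.57 for Irf8, 0.80 for Runx1, 0.53 for Cebpa and 0.33 for Cebpb. Bhlhe40 was at -0.12, Bhlhe41 at -0.19, Fli1 at 0.25 and Ikzf1 at 0.0802 in that comparison. No paired analysis was possible because the labels give no replicate numbers that pair mice across genotypes. With 3 mice a genotype, a p that misses the threshold does not show that levels were alike. An edgeR p-value here sets a difference between genotypes against the estimated spread between these mice.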
